A study of Homo sapiens with 24 samples.

Results

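The measurement described here is how the RNA response to DS07551382, an inhibitor of PTDSS1, differed between A375 cells and a PTDSS2 knockout clone of them. A375 is an established human melanoma line. The libraries were chosen by their titles, all those of A375 being used, which gave 12 of the 24 libraries of the series. They fall into 4 groups of 3: the A375 parent with vehicle (DMSO), the parent with 0.1 µM DS07551382, the PTDSS2 knockout clone #54 with vehicle, and that clone with 0.1 µM DS07551382, each after 24 h. For every gene the inhibitor effect in the parent was subtracted from the inhibitor effect in the knockout, and the result is called the interaction. The same number is also the clone difference (knockout minus parent) in inhibitor minus the clone difference in vehicle.

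The series as a whole measured poly(A) RNA in a colon cancer line and in A375, each as parent and as PTDSS2 knockout. A375 is represented by 1 knockout clone, so that effects of the knockout and other differences of the clone cannot be told apart. Whether the 3 replicates of a group came from separate cultures is not in the labels, so the p-values speak of spread among libraries that may be of technical origin.

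Phosphatidylserine is made in the endoplasmic reticulum (ER) by PTDSS1, which exchanges the head group of phosphatidylcholine, and by PTDSS2, which exchanges that of phosphatidylethanolamine, so that a cell without PTDSS2 depends on PTDSS1. The ER membrane also houses the sterol sensor: when ER sterol is low, SCAP carries the SREBP factors to the Golgi for cleavage and they switch on genes of sterol synthesis and uptake, and when it is high, INSIG proteins hold them back. The same organelle signals unfolded protein through ATF6, IRE1 with XBP1, and PERK with ATF4, while YAP and TAZ with TEAD factors, and SRF with its actin-regulated cofactors, read the state of the cytoskeleton and the cell surface.

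The 12 libraries held 7705622 to 11688267 counts, and levels are given as CPM, the counts of a gene per 1000000 counts of the scaled library. Markers of the melanoma label were present in part: SOX10, ERBB3 and AXL had means of 385, 318 and 390 CPM, and MITF and S100B were detected as well. The pigment genes MLANA, PMEL, TYR, TYRP1 and DCT stood below 1 CPM on average, and TYR was at 0 in every library. None of 8 colon epithelium markers reached a mean of 1 CPM, with a summed level of 0.0 to 1.03 CPM per library, and 9 blood and stromal markers summed to 9.42 to 13.2 CPM. PTDSS2 RNA checked the clone: it stood at 24.1, 22.2 and 23.2 CPM in the parent with vehicle, 21.4, 24.6 and 22.4 in the parent with the inhibitor, 0.921, 0.996 and 0.724 in the knockout with vehicle and 1.91, 1.17 and 1.80 in the knockout with the inhibitor. On the first principal component (47.7% of the variance) the knockout with inhibitor stood apart from the other 9 libraries, and on the second (18.8%) the knockout with vehicle stood apart. The second parent library with vehicle lay away from the other 11 on the third component (6.6%).

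Of 13455 genes tested, 3615 (26.9%) had an interaction at an adjusted p under 0.05, the threshold for every call below (edgeR, Benjamini-Hochberg). Of these, 1752 were upward (13.0%), meaning a more positive inhibitor effect in the knockout, and 1863 were downward (13.8%). The interaction was at least 2-fold for 158 of the upward and 110 of the downward genes. In 3392 of the 3615 the inhibitor effect was called in the knockout and not in the parent, in 10 it was called in both, in 213 in neither, and in 0 in the parent alone. The parent effect itself was called for 12 genes (0.0892%; 3 up, 0.0223%, and 9 down, 0.0669%), with 867 at an unadjusted p under 0.05, and the knockout effect for 5033 (37.4%).

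**Figure D1:**
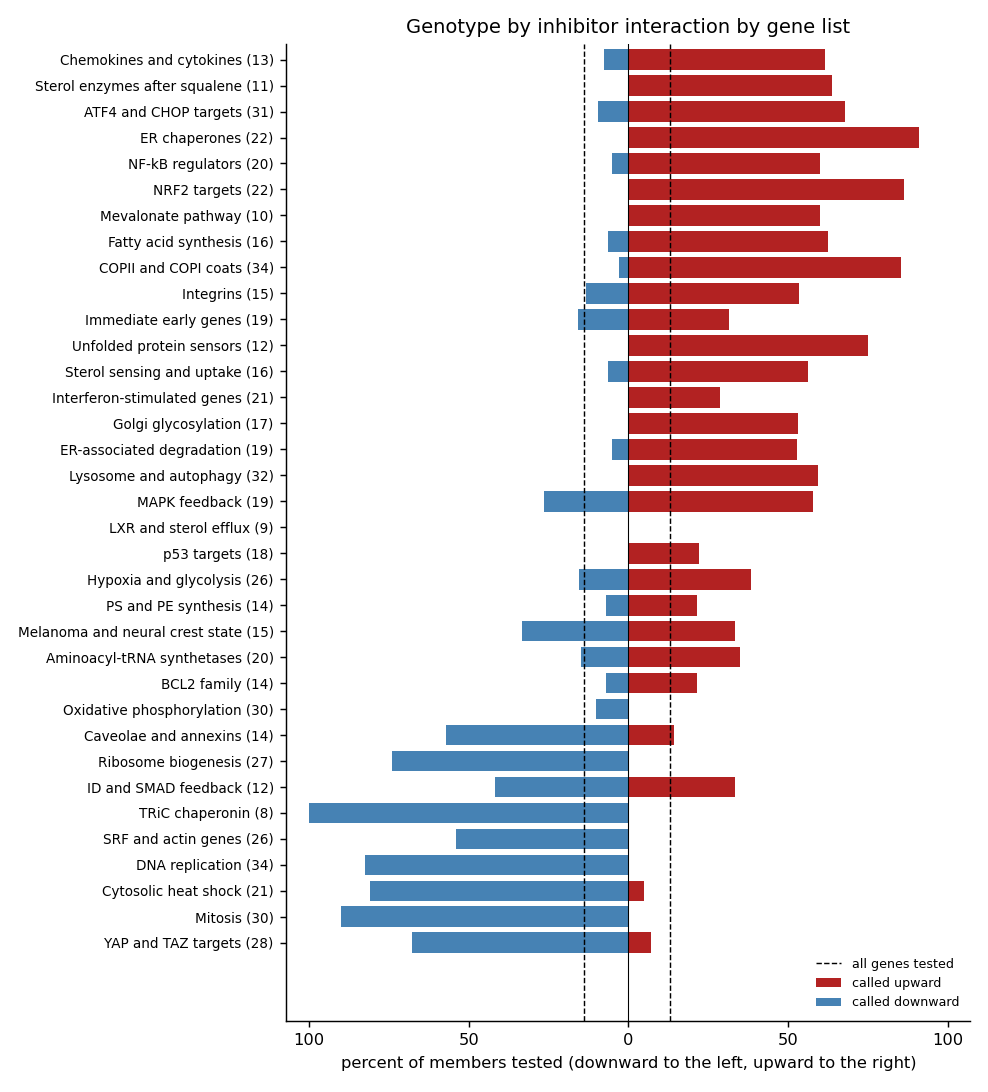
Percent of the tested members of each gene list whose interaction was called upward (red, to the right) or downward (blue, to the left), with the number tested in parentheses and lists ordered by the median interaction. Dashed lines mark the shares over all genes tested, 13.0% upward and 13.8% downward; all 8 TRiC chaperonin genes were called downward and 20 of 22 ER chaperones upward.

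All 12 genes called in the parent were also called in the knockout, and 10 of them moved in opposite directions in the 2 arms (0.0743% of genes tested). Among these 10, SREBF2, INSIG1, SCD, GSN, SLC26A2, PRRX1 and LOXL4 fell in the parent and rose in the knockout, and THBS1 did the reverse. ABCA1 and PSAT1 rose in both. SREBF2, INSIG1 and SCD belong to lipid synthesis and its control. In all 10 genes the libraries of vehicle and inhibitor did not overlap in either arm. The arms share no library, but these genes were picked for their opposite calls. Their lack of overlap and their interactions are therefore given as a description. The share of all genes tested without overlap was not counted.

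**Figure D2:**
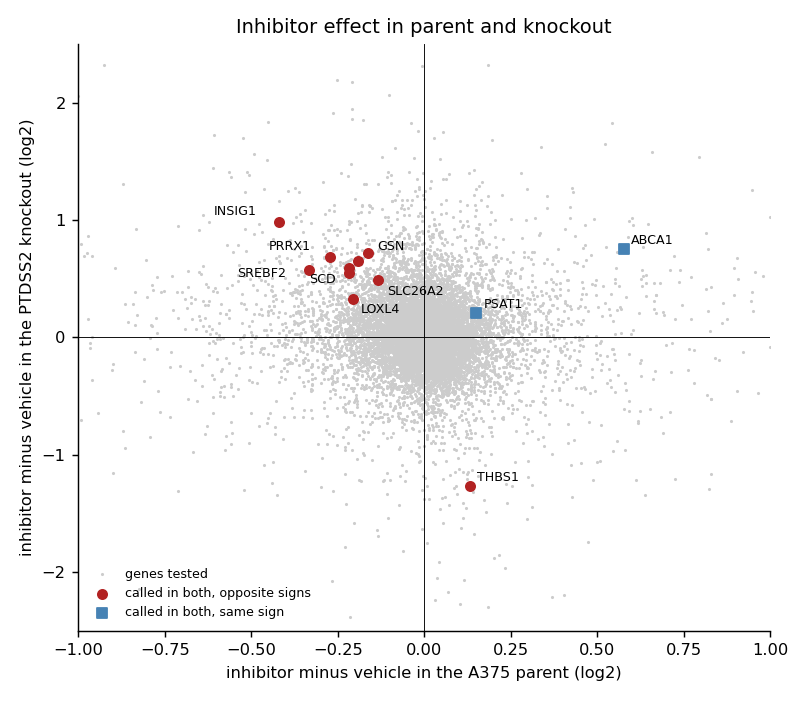
Inhibitor effect (log2, inhibitor minus vehicle) in the A375 parent on the horizontal axis and in the PTDSS2 knockout on the vertical axis, 1 point per gene tested, with 101 genes beyond the axes. The 10 genes called in both arms with opposite signs are red circles, 9 of them at the upper left and THBS1 at the lower right, and the 2 genes called with the same sign are blue squares.

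SREBF2 encodes the SREBP factor that governs sterol genes and that acts on its own promoter. Its promoter is shown because it was the 1 promoter among 29 sterol genes with a window that held the sterol regulatory element searched for, ATCAC, any base and CCAC on either strand. The stretch is the 250 bases before the RefSeq start of SREBF2 (GRCh38.p14, chr22:41832855-41833104, plus strand, 5′ to 3′), with the match in capitals:

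SREBF2 promoter: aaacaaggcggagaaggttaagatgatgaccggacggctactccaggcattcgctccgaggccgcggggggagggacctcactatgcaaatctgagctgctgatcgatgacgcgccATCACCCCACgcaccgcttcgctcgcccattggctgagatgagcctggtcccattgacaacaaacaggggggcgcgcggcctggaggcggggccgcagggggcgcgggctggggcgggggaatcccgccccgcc

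The same letters occurred in 0.154% of all 27305 RefSeq windows, which run from 250 bases before to 50 after a start, and a match is not evidence of binding. They were in 10 of 10774 windows of genes tested (0.0928%), 3 of 1403 windows of upward genes and 0 of 1555 windows of downward genes. SREBF2 stood at 104, 102 and 104 CPM in the parent with vehicle, 82.9, 81.4 and 82.6 in the parent with the inhibitor, 89.7, 97.3 and 91.9 in the knockout with vehicle and 140.5, 135 and 139 in the knockout with the inhibitor. The parent libraries with inhibitor were the lowest of the 12 and the knockout libraries with inhibitor the highest. The inhibitor effect on the log2 scale (± SE) was −0.33 ± 0.04 (adjusted p = 6.23e-05) in the parent and 0.58 ± 0.04 (adjusted p = 3.16e-15) in the knockout, which makes an interaction of 0.91 ± 0.06 (adjusted p = 1.40e-15).

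INSIG1, itself an SREBP target and the protein that retains SCAP in the ER, stood at 36.5, 33.0 and 32.7 CPM in the parent with vehicle, 25.5, 25.6 and 25.2 in the parent with the inhibitor, 27.3, 27.9 and 29.7 in the knockout with vehicle and 56.3, 54.6 and 56.9 in the knockout with the inhibitor. Its order of groups was that of SREBF2, with no overlap between any of the 4 contrasted pairs of groups. INSIG1 fell by 0.42 ± 0.07 in the parent (adjusted p = 0.003057) and rose by 0.98 ± 0.06 (adjusted p = 1.74e-16) in the knockout, with an interaction of 1.40 ± 0.10 (adjusted p = 6.10e-15).

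SCD, the desaturase that makes oleate, stood at 412, 431 and 402 CPM in the parent with vehicle, 364, 352 and 354 in the parent with the inhibitor, 332, 324 and 328 in the knockout with vehicle and 471, 474 and 496 in the knockout with the inhibitor. In SCD, too, the parent fell, the knockout rose, and neither arm overlapped. Its effects were −0.22 ± 0.03 in the parent and 0.55 ± 0.03 in the knockout, with an interaction of 0.77 ± 0.04 (adjusted p = 4.04e-18).

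GSN, the actin-severing protein gelsolin, stood at 266, 263 and 254 CPM in the parent with vehicle, 243, 224 and 233 in the parent with the inhibitor, 214, 201 and 201 in the knockout with vehicle and 338, 339.7 and 334 in the knockout with the inhibitor. Without the inhibitor the knockout was below the parent, and with it above. The interaction of GSN was 0.88 ± 0.05 (adjusted p = 2.03e-18). The sulfate transporter SLC26A2 had the same pattern, with parent and knockout effects of −0.13 ± 0.03 and 0.49 ± 0.03. PRRX1, a mesenchymal homeobox factor, and LOXL4, a lysyl oxidase relative, also fell in the parent and rose in the knockout, but the knockout stayed at or below the parent in both conditions: PRRX1 averaged 83.9, 69.6, 36.6 and 59.0 CPM over the 4 groups in the order above, and LOXL4 averaged 206, 179, 134 and 169 CPM.

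THBS1, the matrix glycoprotein thrombospondin 1 and a YAP-responsive gene, moved the other way. It stood at 1998, 1995 and 2067 CPM in the parent with vehicle, 2202, 2229 and 2205 in the parent with the inhibitor, 2508, 2569 and 2607 in the knockout with vehicle and 1064, 1064 and 1060 in the knockout with the inhibitor. The knockout with vehicle was the highest group and the knockout with inhibitor the lowest, and the parent rose slightly between them. The effect was 0.13 ± 0.02 (adjusted p = 0.002525) in the parent and −1.27 ± 0.02 (adjusted p = 4.62e-35) in the knockout, with an interaction of −1.40 ± 0.03 (adjusted p = 4.65e-31).

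ABCA1, the cholesterol exporter driven by LXR, was the called gene of the parent with the largest effect. It stood at 18.4, 21.3 and 19.5 CPM in the parent with vehicle, 30.5, 31.0 and 26.8 in the parent with the inhibitor, 15.9, 20.7 and 17.7 in the knockout with vehicle and 29.9, 30.5 and 29.97 in the knockout with the inhibitor. The inhibitor raised it in both arms without overlap, by 0.58 ± 0.09 (adjusted p = 4.24e-04) and 0.75 ± 0.09 (adjusted p = 3.52e-09), and the interaction of 0.17 ± 0.13 did not pass the test (adjusted p = 0.3533). The serine synthesis enzyme PSAT1 rose by 0.15 ± 0.03 in the parent and 0.21 ± 0.03 in the knockout (interaction 0.06 ± 0.04, adjusted p = 0.2996).

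**Figure D3:**
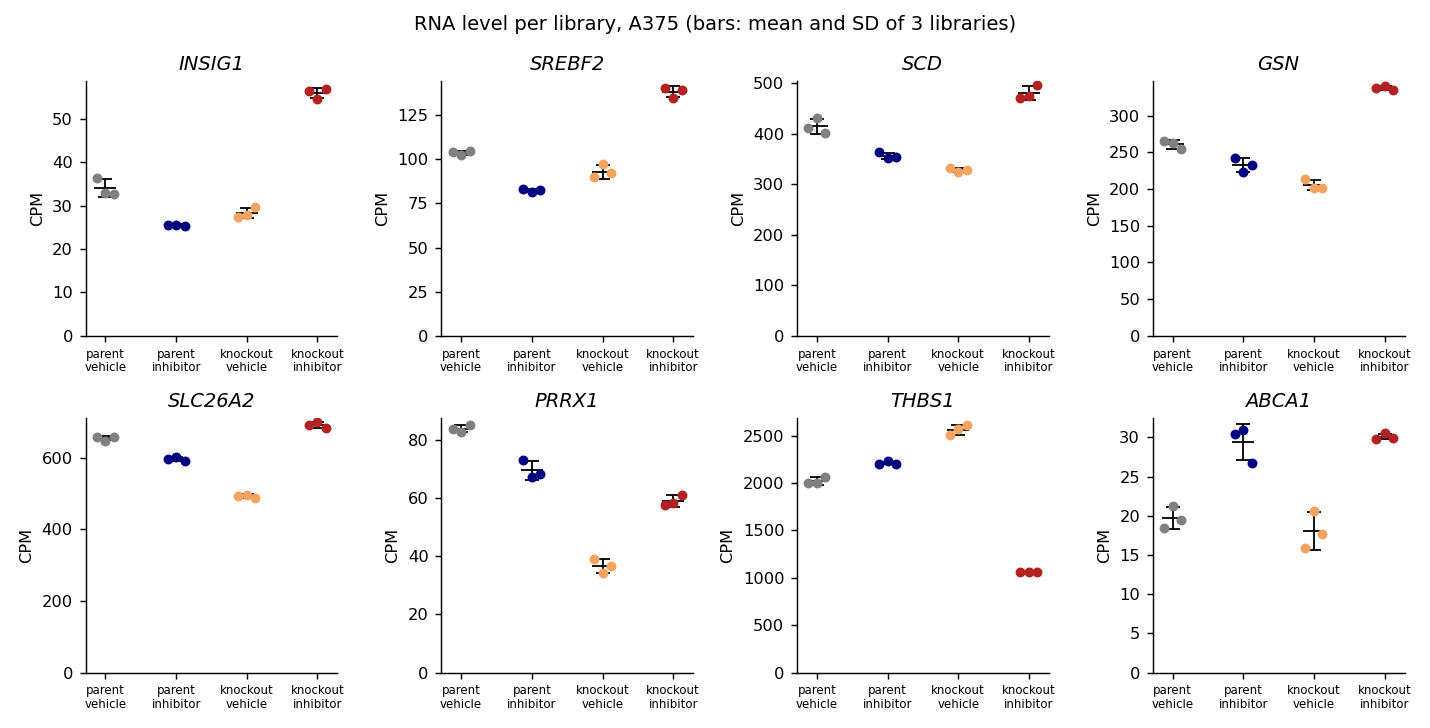
CPM in each library (points) with mean and SD of the 3 libraries of a group (bars) for 7 genes called in both arms with opposite signs and for ABCA1. INSIG1, SREBF2, SCD, GSN and SLC26A2 are lower in the parent with inhibitor than with vehicle and highest in the knockout with inhibitor; PRRX1 is highest in the parent with vehicle, THBS1 is lowest in the knockout with inhibitor, and ABCA1 is raised in both arms.

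The 10 opposite calls rest on a parent effect that was small. Leaving out the third parent library with inhibitor left 5 of them, and leaving out the first or the third parent library with vehicle left 6. With the parent effect taken at an unadjusted p under 0.05, 428 of the genes called in the knockout could be given a sign in both arms. In 310 of these the signs were opposite (72.4% of the 428, 2.30% of genes tested) and in 118 they were the same. An unadjusted p under 0.05 is also reached by genes without a parent effect, and 867 of 13455 genes reached it. How many of these parent signs came by chance was not estimated. The opposite group held 162 genes lower in the parent and up in the knockout and 148 higher in the parent and down in the knockout. With DESeq2 the counts were 144 opposite and 41 the same. The median parent effect was −0.011 over the genes that rose in the knockout, 0.02 over those that fell and 0.001 over those not called.

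The sterol lists had more upward than downward interactions, while few of their parent effects were called: 3 of 16 genes of sensing and uptake, 0 of 10 of the mevalonate pathway and 1 of 11 enzymes after squalene, each of them down. Of 16 tested genes of sterol sensing and uptake, 9 had an upward and 1 a downward interaction (median 0.30, against 0.001 over all genes tested). NPC1, which moves cholesterol out of lysosomes, had an interaction of 0.60 ± 0.08 (adjusted p = 3.27e-07). The exception was TMEM97, a binding partner of NPC1, with −0.32 ± 0.08 (adjusted p = 0.002508). In the mevalonate pathway 6 of 10 genes were upward and 0 downward (median 0.40), among them IDI1 at 0.55 ± 0.08 and FDFT1 at 0.51 ± 0.07. Of the 11 enzymes after squalene 7 were upward and 0 downward (median 0.50), with SQLE at 0.74 ± 0.09 and DHCR7 at 0.59 ± 0.09. In the parent the median effect over these 11 was −0.17, against 0.004 over all genes tested. Of the 11 estimates 9 lay below 0, a share not counted over all genes, with SQLE (−0.20 ± 0.07 (adjusted p = 0.5473)) among those not called. Of 16 tested genes of fatty acid synthesis 10 were upward and 1 downward (median 0.37); ACACA, the carboxylase that starts the pathway, had 0.36 ± 0.06, FADS1 had 0.43 ± 0.05 and ELOVL1 was the downward one at −0.31 ± 0.07. Of 9 tested genes of the LXR list, which answer to sterol excess, 0 had a called interaction (median 0.17). The median was 0.07 without the second knockout library with vehicle and 0.11 without the third parent library with inhibitor, and 1 gene was upward in 7 of 21 alternatives.

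A clone difference without the inhibitor was called for 2115 genes (15.7%; 1235 higher in the knockout, 9.18%, and 880 lower, 6.54%), and with the inhibitor for 5529 (41.1%). The 2 clone differences share no library. Both were called in 1388 genes, and in 477 of them the signs were opposite (34.4% of the 1388, 3.55% of genes tested). For 312 genes the knockout was higher in vehicle and lower in inhibitor, and for 165 it was lower and then higher. DESeq2 gave 270 such genes, and leaving out the first parent library with vehicle gave 317. In a further 373 genes (2.77%) the interaction was called against the clone difference in vehicle and no clone difference was called with the inhibitor, which is named closed here, and in 202 (1.50%) the interaction widened it. The clone difference in vehicle and the interaction share the vehicle libraries of both clones, with opposite signs, so these last counts are descriptions. Opposite calls of the 2 clone differences fix the sign of the interaction, and all 477 crossed genes had it called. For crossed genes named below, the interactions and any lack of overlap are therefore descriptions as well.

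**Figure D4:**
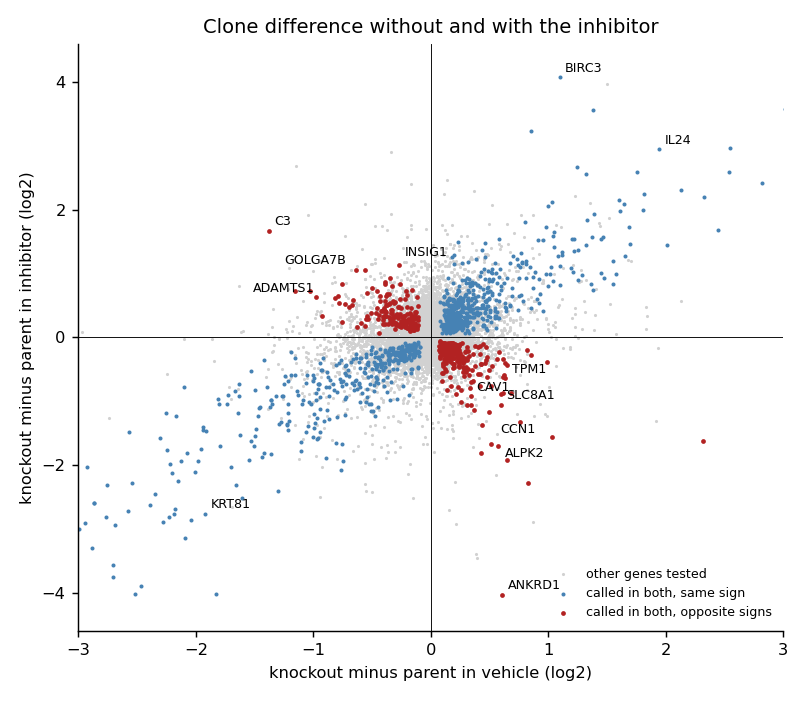
Clone difference (log2, knockout minus parent) in vehicle on the horizontal axis and in inhibitor on the vertical axis, 1 point per gene tested, with 42 genes beyond the axes. Genes called in both with opposite signs are red (ANKRD1, CCN1, ALPK2, SLC8A1, TPM1 and CAV1 at the lower right, C3, GOLGA7B, ADAMTS1 and INSIG1 at the upper left), and genes called in both with the same sign are blue.

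Targets of YAP and TAZ were the list with the most negative median interaction. Of 28 genes, 19 were downward and 2 upward (median −0.47). In vehicle 13 of them were higher in the knockout and 2 lower (median 0.18; 9.18% of all genes were called higher), and with the inhibitor 3 were higher and 18 lower (median −0.46; 20.2% of all genes were called lower). Signs were opposite for 8 of them, all high and then low, while 3.55% of all genes tested had opposite signs in either order. ANKRD1, a cardiac ankyrin repeat protein and a standard readout of YAP, had the largest interaction of those named here. Its promoter is shown because it holds the TEAD motif CATTCC at a pair of places, both on the reverse strand, so that the printed strand reads GGAATG in capitals (250 bases before the RefSeq start, GRCh38.p14, chr10:90921088-90921337, minus strand):

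ANKRD1 promoter: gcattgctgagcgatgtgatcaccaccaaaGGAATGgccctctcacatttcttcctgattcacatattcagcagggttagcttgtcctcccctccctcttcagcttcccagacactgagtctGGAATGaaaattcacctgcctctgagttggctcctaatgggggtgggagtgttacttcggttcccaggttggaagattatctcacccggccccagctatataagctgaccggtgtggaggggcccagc

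The motif is short: it occurred in 14% of all windows and in 8 of 21 windows of the list, CCN2 and TGFB2 among them. It was in 10.7% of windows of genes tested, 9.55% of those of upward genes and 11.4% of those of downward genes. ANKRD1 stood at 15.3, 12.8 and 9.19 CPM in the parent with vehicle, 13.5, 12.6 and 12.1 in the parent with the inhibitor, 17.6, 17.2 and 21.6 in the knockout with vehicle and 0.956, 0.680 and 0.685 in the knockout with the inhibitor. All 3 knockout libraries with inhibitor were under 1 CPM, and those of the knockout with vehicle lay above every parent library. The clone difference was 0.61 ± 0.13 (adjusted p = 4.55e-04) in vehicle and −4.03 ± 0.24 (adjusted p = 3.42e-17) in inhibitor, and the interaction was −4.64 ± 0.28 (adjusted p = 1.33e-16).

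CCN1, a secreted matricellular YAP target, stood at 77.4, 80.8 and 73.2 CPM in the parent with vehicle, 85.5, 82.5 and 82.4 in the parent with the inhibitor, 110.0, 108 and 111 in the knockout with vehicle and 31.6, 23.6 and 24.1 in the knockout with the inhibitor. The groups did not overlap, and the knockout passed from the highest to the lowest level. Its clone difference was 0.51 ± 0.05 in vehicle and −1.67 ± 0.07 in inhibitor. CCN2, its close relative, had 0.44 ± 0.05 and −1.38 ± 0.06. The receptor kinase AXL had 0.28 ± 0.03 and −0.60 ± 0.03, the adaptor AJUBA 0.33 ± 0.05 and −0.79 ± 0.05, and TEAD4, a partner of YAP, 0.27 ± 0.06 and −0.54 ± 0.06. YAP1 itself had an interaction of −0.05 ± 0.05 that was not called. WWTR1, which encodes TAZ, and AMOTL1 were the upward pair, at 0.21 ± 0.04 and 0.14 ± 0.05.

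Of 26 tested SRF and actin genes 14 had a downward and 0 an upward interaction (median −0.29). In vehicle 9 of them were higher in the knockout and 2 lower, against 9.18% and 6.54% of all genes tested. With the inhibitor 1 was higher and 15 were lower, against 20.9% and 20.2%. Of the 26, 7 crossed from high to low, and 4 did so without the first parent library with vehicle. Of all genes tested, 3.55% crossed in either direction. TPM1, a tropomyosin, stood at 229, 224 and 229.9 CPM in the parent with vehicle, 246, 242 and 244 in the parent with the inhibitor, 346, 354 and 355 in the knockout with vehicle and 159, 165 and 161 in the knockout with the inhibitor. The knockout was above all parent libraries in vehicle and below all of them in inhibitor, with clone differences of 0.63 ± 0.03 and −0.59 ± 0.03 and an interaction of −1.22 ± 0.04 (adjusted p = 3.35e-24). The beta and gamma actins ACTB and ACTG1 had interactions of −0.56 ± 0.03 and −0.78 ± 0.03, vinculin (VCL) −0.41 ± 0.06 and calponin 2 (CNN2) −0.96 ± 0.07; SRF, at −0.02 ± 0.08, was not called. The CArG box, the motif that SRF binds, was found in 6 of 23 windows of the list and in 1.29% of all windows. It was in 1.08% of windows of genes tested, 0.998% of those of upward genes and 1.48% of those of downward genes. Of 14 tested caveolae and annexin genes 8 were downward and 2 upward (median −0.18), and 5 were downward with DESeq2. In vehicle 10 of them were higher in the knockout and 0 lower (median 0.21), against 9.18% and 6.54% of all genes tested. With the inhibitor 5 were higher and 4 lower (median 0.07), against 20.9% and 20.2%, and 3 crossed from high to low. CAV1, the main caveolar coat protein, stood at 370.3, 392 and 359 CPM in the parent with vehicle, 389.6, 386 and 388 in the parent with the inhibitor, 476, 464 and 479 in the knockout with vehicle and 204, 215 and 197 in the knockout with the inhibitor. Its clone difference went from 0.34 ± 0.03 (adjusted p = 2.96e-11) to −0.92 ± 0.03 (adjusted p = 6.87e-25). CAV2 went from 0.32 ± 0.08 to −0.59 ± 0.08. ANXA2, an annexin that binds acidic phospholipids such as phosphatidylserine, was a closed gene: its clone difference was 0.31 ± 0.02 (adjusted p = 3.67e-13) in vehicle and 0.00 ± 0.02 in inhibitor (adjusted p = 0.971), and the knockout libraries with inhibitor overlapped those of the parent.

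Among genes outside these lists, the alpha kinase ALPK2 went from 0.57 ± 0.11 to −1.70 ± 0.15, the sodium-calcium exchanger SLC8A1 from 0.59 ± 0.09 to −1.06 ± 0.10, the peptide hormone adrenomedullin (ADM) from 0.60 ± 0.11 to −0.89 ± 0.12, and the GTPase regulator DLC1 from 0.63 ± 0.05 to −0.63 ± 0.06. CPA4, a carboxypeptidase, went from 0.42 ± 0.04 to −1.82 ± 0.04 and had an interaction of −2.24 ± 0.06 (adjusted p = 1.72e-29). In each of these 5 genes the knockout was the higher clone in vehicle and the lower with the inhibitor.

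The 165 genes that crossed the other way included immune, adhesion and lipid genes. C3, the central complement component, stood at 4.57, 5.03 and 4.42 CPM in the parent with vehicle, 4.62, 5.26 and 3.58 in the parent with the inhibitor, 2.15, 2.12 and 1.14 in the knockout with vehicle and 15.7, 13.4 and 13.9 in the knockout with the inhibitor. The knockout with vehicle was the lowest group and the knockout with inhibitor the highest, without overlap. C3 had clone differences of −1.38 ± 0.26 (adjusted p = 9.26e-05) and 1.67 ± 0.14 (adjusted p = 6.58e-13) and an interaction of 3.05 ± 0.29 (adjusted p = 5.09e-11). GOLGA7B, a Golgi protein that assists palmitoylation, stood at 7.22, 12.1 and 8.71 CPM in the parent with vehicle, 9.12, 9.76 and 10.00 in the parent with the inhibitor, 4.61, 6.84 and 6.61 in the knockout with vehicle and 19.8, 20.03 and 20.5 in the knockout with the inhibitor. Its clone difference was −0.64 ± 0.17 (adjusted p = 0.006621) in vehicle and 1.06 ± 0.12 (adjusted p = 5.39e-10) in inhibitor, the parent with vehicle being the most scattered group. ICAM1, an adhesion receptor for leukocytes, went from −0.35 ± 0.08 to 0.94 ± 0.06, the integrin ITGB3 from −0.53 ± 0.04 to 0.28 ± 0.03, the growth factor GDNF from −0.56 ± 0.15 to 1.06 ± 0.12 and the protease ADAMTS1 from −0.82 ± 0.16 to 0.62 ± 0.12. INSIG1, SREBF2, SCD, GSN and SLC26A2, described above for their opposite arms, were among the 165 as well.

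**Figure D5:**
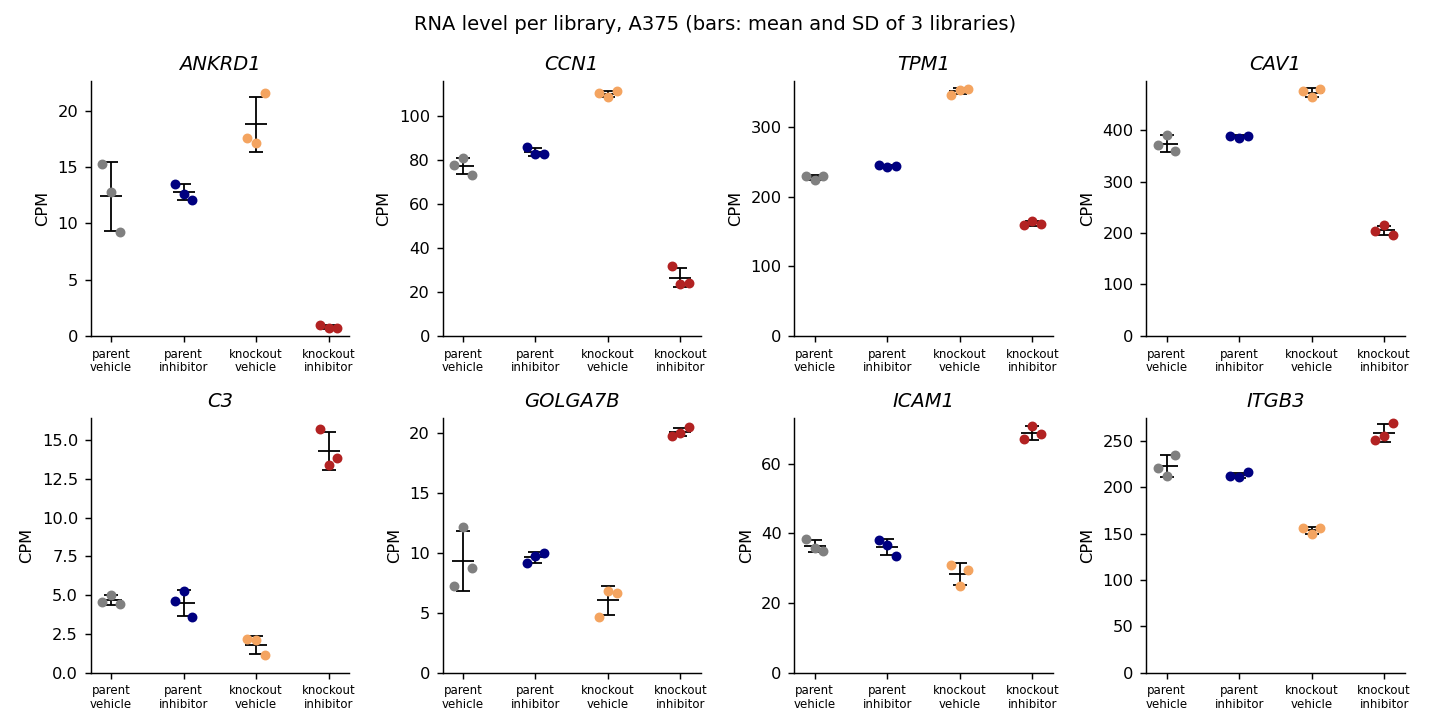
CPM in each library (points) with mean and SD of the 3 libraries of a group (bars) for 8 genes whose clone difference had opposite signs in vehicle and in inhibitor. ANKRD1, CCN1, TPM1 and CAV1 are highest in the knockout with vehicle and lowest in the knockout with inhibitor; C3, GOLGA7B, ICAM1 and ITGB3 show the reverse order.

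In melanoma the neural crest factor SOX10 and the receptor AXL mark opposite cell states. Of 15 tested genes of these states 5 were upward and 5 downward, and the median of 0.05 had no stable sign (−0.08 to 0.11 over the alternatives). Downward genes numbered 3 with DESeq2 and without the first or the third knockout library with vehicle, the first parent library with inhibitor, or the second or the third parent library with vehicle. SOX10 stood at 397, 404 and 392 CPM in the parent with vehicle, 400.5, 355 and 388 in the parent with the inhibitor, 353, 316 and 332 in the knockout with vehicle and 451, 406 and 428 in the knockout with the inhibitor. It was lower in the knockout in vehicle (−0.25 ± 0.05 (adjusted p = 0.003943)) and higher in inhibitor (0.17 ± 0.05 (adjusted p = 0.01318)). In inhibitor the lowest knockout library was just above the highest parent library. ERBB3, a receptor kinase that SOX10 drives, went from −0.39 ± 0.03 (adjusted p = 5.64e-13) to 0.21 ± 0.03 (adjusted p = 7.66e-08), and the factor SOX5 from −0.25 ± 0.04 to 0.47 ± 0.04. AXL moved the other way as given above, and NGFR, with no clone difference called in vehicle (0.02 ± 0.04), had −0.91 ± 0.04 (adjusted p = 1.91e-20) in inhibitor. MITF had an interaction of −0.30 ± 0.11 (adjusted p = 0.03189).

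Among closed genes, RXRG, a retinoid receptor, stood at 14.7, 12.6 and 14.9 CPM in the parent with vehicle, 16.2, 11.6 and 14.8 in the parent with the inhibitor, 7.68, 6.97 and 6.10 in the knockout with vehicle and 15.5, 14.0 and 15.4 in the knockout with the inhibitor. The knockout with inhibitor lay among the parent libraries. Its clone difference went from −1.03 ± 0.14 (adjusted p = 5.60e-07) to 0.09 ± 0.11 (adjusted p = 0.5724). MAP3K14, the kinase that starts the non-canonical NF-kB pathway, went from 0.68 ± 0.08 (adjusted p = 5.07e-09) to 0.16 ± 0.07 (adjusted p = 0.07937), and the AP-1 factor JUN from 0.49 ± 0.07 (adjusted p = 5.45e-07) to 0.01 ± 0.07 (adjusted p = 0.9104). A p over the threshold does not show that the clones were equal. Widened genes included the cytokine IL24, which stood at 25.8, 23.8 and 27.6 CPM in the parent with vehicle, 27.9, 27.4 and 29.0 in the parent with the inhibitor, 97.0, 105 and 96.3 in the knockout with vehicle and 217, 220.4 and 215 in the knockout with the inhibitor. Its clone difference went from 1.94 ± 0.06 to 2.95 ± 0.05, and that of the peroxidase PXDN from 1.61 ± 0.06 to 1.98 ± 0.05. The long noncoding RNA UCA1 was lower in the knockout in vehicle (−1.30 ± 0.11) and lower still in inhibitor (−2.40 ± 0.13).

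ER chaperones, vesicle coats and NRF2 targets had the highest shares of upward interactions among the lists. Of 22 ER chaperones and folding enzymes 20 were upward and 0 downward (median 0.44). In vehicle 9 had been higher and 1 lower in the knockout, against 9.18% and 6.54% of all genes tested. HSPA5, the chaperone BiP, and CALR, the chaperone calreticulin, are set side by side because their promoters both hold the classical ER stress element, CCAAT, 9 bases of any kind and CCACG on either strand (capitals; in CALR it lies on the reverse strand), and their RNAs differed in response. Both stretches are the 250 bases before the RefSeq start in GRCh38.p14, HSPA5 at chr9:125241344-125241593 (minus strand) and CALR at chr19:12938359-12938608 (plus strand):

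HSPA5 promoter: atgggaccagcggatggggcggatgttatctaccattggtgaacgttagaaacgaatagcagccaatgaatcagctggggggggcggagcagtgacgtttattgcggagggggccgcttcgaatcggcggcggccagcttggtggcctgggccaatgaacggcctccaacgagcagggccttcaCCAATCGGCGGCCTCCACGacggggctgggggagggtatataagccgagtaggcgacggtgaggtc

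CALR promoter: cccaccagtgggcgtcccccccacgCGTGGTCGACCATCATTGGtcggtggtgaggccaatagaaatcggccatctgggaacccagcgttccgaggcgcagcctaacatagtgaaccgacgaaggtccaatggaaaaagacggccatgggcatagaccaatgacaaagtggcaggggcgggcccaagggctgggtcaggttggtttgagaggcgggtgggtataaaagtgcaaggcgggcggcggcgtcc

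The element occurred in 0.0806% of all windows and in 6 of 20 windows of the list. It was in 14 of 10774 windows of genes tested (0.13%). Windows of upward genes held it in 9 of 1403 cases, members of the list included, and windows of downward genes in 0 of 1555. Besides HSPA5 and CALR, list windows with the element were those of ERO1B, CRELD2, HSP90B1 and CANX, with interactions of 0.86, 0.49, 0.41 and 0.37. CALR had the lowest interaction of the 22 genes of the list. HSPA5 stood at 912, 944 and 936 CPM in the parent with vehicle, 921, 925 and 894 in the parent with the inhibitor, 1054, 1020 and 1023 in the knockout with vehicle and 1754, 1738 and 1754 in the knockout with the inhibitor. All 3 knockout libraries with inhibitor were far above the other 9, and the interaction was 0.79 ± 0.03 (adjusted p = 1.37e-21). CALR stood at 1013, 1009 and 1022 CPM in the parent with vehicle, 1015, 985 and 972 in the parent with the inhibitor, 1123, 1090 and 1128 in the knockout with vehicle and 1132, 1160 and 1157 in the knockout with the inhibitor. Its knockout libraries were all above the parent libraries, but vehicle and inhibitor lay close in both clones, and the interaction of 0.08 ± 0.03 was not called (adjusted p = 0.07805). HYOU1, whose window holds the second type of the element (ATTGG, any base and CCACG, sharing CCACG with the classical one), had 0.65 ± 0.04, and PDIA4, a disulfide isomerase, 0.61 ± 0.04.

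Of 12 tested sensors and factors of the unfolded protein response 9 were upward and 0 downward (median 0.34). XBP1, the factor activated by IRE1 splicing, stood at 57.4, 60.2 and 59.3 CPM in the parent with vehicle, 63.4, 61.9 and 65.8 in the parent with the inhibitor, 64.3, 62.1 and 62.7 in the knockout with vehicle and 123, 118 and 125 in the knockout with the inhibitor. The knockout with inhibitor was the highest group by a wide margin, with an interaction of 0.84 ± 0.07 (adjusted p = 1.02e-12), while splicing itself was not analysed here. EIF2AK3, which encodes PERK, had 1.15 ± 0.14. Of 19 tested genes of ER-associated degradation 10 were upward and 1 downward (median 0.22), led by HERPUD1, a scaffold of the ubiquitin ligase complex, at 1.22 ± 0.08 (adjusted p = 1.17e-15). Of 34 coat genes of ER and Golgi vesicles 29 were upward and 1 downward (median 0.36). SEC24D, a cargo adaptor of COPII, stood at 33.5, 35.4 and 35.3 CPM in the parent with vehicle, 34.8, 34.3 and 37.1 in the parent with the inhibitor, 38.5, 35.0 and 37.6 in the knockout with vehicle and 123, 119 and 119 in the knockout with the inhibitor. The other 3 groups overlapped and the knockout with inhibitor did not reach down to them; the interaction was 1.67 ± 0.09 (adjusted p = 8.16e-19). Of 17 tested Golgi glycosylation genes 9 were upward and 0 downward (median 0.26).

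Among 31 tested targets of ATF4 and CHOP 21 were upward and 3 downward (median 0.44). The cystine transporter SLC7A11 had an interaction of 1.09 ± 0.05 and the alanine and serine transporter SLC1A4 1.05 ± 0.08. The downward members were ATF5 and the pair SLC7A5 and SLC3A2, the light and heavy chains of an amino acid transporter. SLC7A5 stood at 1508, 1618 and 1545 CPM in the parent with vehicle, 1686, 1543 and 1584 in the parent with the inhibitor, 2199, 2104 and 2149 in the knockout with vehicle and 1825, 1718 and 1811 in the knockout with the inhibitor. In the knockout it was higher than in the parent in both conditions, and the inhibitor narrowed that difference from 0.47 ± 0.03 to 0.15 ± 0.03, an interaction of −0.31 ± 0.04 (adjusted p = 4.00e-06). SLC3A2 went from 0.49 ± 0.03 to 0.34 ± 0.03, an interaction of −0.15 ± 0.04 (adjusted p = 0.002162). Of 20 aminoacyl-tRNA synthetases 7 were upward and 3 downward (median 0.01), or 1 downward without the first parent library with vehicle, with WARS1 at 0.46 ± 0.05 and KARS1 at −0.19 ± 0.04.

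NF-kB genes also moved upward. Of 20 regulators 12 were upward and 1, MAP3K14, downward (median 0.43). Of 13 tested chemokines and cytokines 8 were upward and 1 downward (median 1.01). The other 10 of the 23 in that list did not pass the filter, which a gene can pass through a single group where it is high. With a mean of at least 5 CPM required, 8 were tested, 5 of them upward and 1 downward (median 0.84). BIRC3, an inhibitor of apoptosis and a target of NF-kB, is shown with its promoter because it had the largest upward interaction at a mean of at least 8 CPM and its window holds an NF-kB site, GGG, any 2 bases and TTTCC, on the reverse strand (250 bases before the RefSeq start, GRCh38.p14, chr11:102317234-102317483, plus strand, match in capitals):

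BIRC3 promoter: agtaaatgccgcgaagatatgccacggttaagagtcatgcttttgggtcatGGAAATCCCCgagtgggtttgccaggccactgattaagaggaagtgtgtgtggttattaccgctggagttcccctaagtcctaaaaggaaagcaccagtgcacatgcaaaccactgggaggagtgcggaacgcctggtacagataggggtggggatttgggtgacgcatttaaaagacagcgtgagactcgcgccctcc

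Such a site occurred in 1.92% of all windows and in 9 of 27 windows of both lists, among them CXCL1, CXCL2 and CXCL3. It was in 2.06% of windows of genes tested, 3.56% of those of upward genes and 2.25% of those of downward genes. BIRC3 stood at 1.80, 2.71 and 3.22 CPM in the parent with vehicle, 2.04, 1.72 and 2.11 in the parent with the inhibitor, 5.63, 6.72 and 4.44 in the knockout with vehicle and 33.0, 32.8 and 34.0 in the knockout with the inhibitor. The knockout with vehicle was above every parent library, and the knockout with inhibitor was higher again. Its clone difference went from 1.10 ± 0.22 to 4.08 ± 0.14, an interaction of 2.98 ± 0.32 (adjusted p = 7.95e-10). BIRC3 passed the minimum mean level only through the knockout with inhibitor, since each library of the other groups lay below that minimum. C3 had a larger interaction (3.05) but a mean below the minimum. The rank by which BIRC3 was picked therefore depends in part on the values reported here. CXCL3 had an interaction of 1.92 ± 0.55 at a low level, whereas CXCL1, with the same site letters, had −0.30 ± 0.11 (adjusted p = 0.03793), a call that 14 of 21 alternatives did not make. CXCL1 was higher in the knockout in both conditions (1.29 ± 0.08 and 0.99 ± 0.07).

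Of 22 tested NRF2 targets 19 were upward and 0 downward (median 0.41), and 10 were higher in the knockout in vehicle (9.18% of all genes tested). NQO1, a quinone reductase, had clone differences of 0.42 ± 0.03 and 0.96 ± 0.02 and an interaction of 0.54 ± 0.04 (adjusted p = 5.12e-16). Of 32 lysosome and autophagy genes 19 were upward and 0 downward (median 0.21). SQSTM1, the autophagy receptor p62, stood at 580.1, 617 and 593 CPM in the parent with vehicle, 607, 602 and 601 in the parent with the inhibitor, 704, 712 and 686 in the knockout with vehicle and 1675, 1723 and 1678 in the knockout with the inhibitor. The knockout with inhibitor was above all other libraries, and the interaction was 1.26 ± 0.04 (adjusted p = 1.50e-27). WIPI1, which binds phosphoinositides at the forming autophagosome, had 1.77 ± 0.18 (adjusted p = 1.17e-10).

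Downward lists were those of cytosolic folding and of growth. Of 21 tested cytosolic heat shock genes 17 were downward and 1 upward (median −0.32), and 10 were higher in the knockout in vehicle (9.18% of all genes tested). All 10 of the list's crossings were from high to low, as were 312 of the 477 over all genes tested. Over the alternatives these crossings of the list numbered 7 to 11. HSPA8, the constitutive HSP70, stood at 3498, 3551 and 3478 CPM in the parent with vehicle, 3698, 3752 and 3664 in the parent with the inhibitor, 3734, 3723 and 3771 in the knockout with vehicle and 2537, 2527 and 2470 in the knockout with the inhibitor. The parent with inhibitor and the knockout with vehicle were the highest groups and the knockout with inhibitor the lowest, with an interaction of −0.65 ± 0.03 (adjusted p = 1.11e-20). HSPA1A and HSPA1B had −0.57 ± 0.06 and −0.76 ± 0.06, but they are near-identical copies whose counts are uncertain. DNAJB4 was the upward member at 0.66 ± 0.14. All 8 subunits of TRiC, the chaperonin that folds actin and tubulin, were downward (median −0.27), and TCP1 had −0.33 ± 0.04. In the parent all 8 TRiC estimates were above 0 (median 0.04, against 0.004 over all genes tested), with none called. Some other lists leaned the same way, such as aminoacyl-tRNA synthetases (19 of 20 above 0) and vesicle coats (24 of 34). Others leaned the other way, such as Golgi glycosylation (14 of 17 below 0). How many of all genes tested lay above 0 was not counted.

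Of 27 ribosome biogenesis genes 20 were downward and 0 upward (median −0.24), with nucleolin (NCL) at −0.35 ± 0.03. Of 34 DNA replication genes 28 were downward and 0 upward (median −0.31), with the helicase subunit MCM4 at −0.41 ± 0.04. Of 30 mitosis genes 27 were downward and 0 upward (median −0.36); CDC20, the activator of the anaphase-promoting complex, had −0.69 ± 0.05 (adjusted p = 1.12e-15), and the kinase AURKA −0.51 ± 0.05. The cell cycle homology region TTTGAA was found in 16 of 25 windows of the mitosis list and in 15.4% of all windows. It was in 9.84% of windows of genes tested, 7.77% of those of upward genes and 14.3% of those of downward genes. Cyclin D1 (CCND1) stood at 641, 637 and 629 CPM in the parent with vehicle, 669, 663 and 664 in the parent with the inhibitor, 685, 697 and 687 in the knockout with vehicle and 473, 459.8 and 483 in the knockout with the inhibitor. It was highest in the knockout with vehicle and lowest in the knockout with inhibitor, and its interaction was −0.61 ± 0.04 (adjusted p = 4.25e-17). BCL2L1, which encodes the survival protein BCL-XL, had −0.66 ± 0.07 (adjusted p = 2.64e-10), and of 14 tested BCL2 family genes it was the 1 called downward, with 3 upward. In bulk RNA, fewer cells of a kind and less RNA per cell cannot be told apart, and cell number was not analysed here. Of 30 oxidative phosphorylation genes 3 were downward and 0 upward (median 0.00).

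Several signalling lists were split. Of 19 MAPK feedback genes 11 were upward and 5 downward (median 0.18), or 3 downward without the third parent library with inhibitor. The phosphatase DUSP4 and the adaptor PHLDA1 had interactions of 0.56 ± 0.04 and 0.74 ± 0.04, while the ephrin receptor EPHA2 and the AP-1 factor FOSL1 had −0.55 ± 0.04 and −0.27 ± 0.04, both having been higher in the knockout in vehicle (0.40 ± 0.03 and 0.44 ± 0.03). Of 19 tested immediate early genes 6 were upward and 3 downward (median 0.35). The orphan receptor NR4A1 had 0.89 ± 0.08 and the factor KLF4 0.92 ± 0.11, whereas KLF2, a flow-responsive relative of KLF4, crossed from 0.65 ± 0.11 in vehicle to −0.44 ± 0.13 in inhibitor. Of 12 tested genes of the ID and SMAD feedback list 4 were upward and 5 downward. Their median was −0.27, the same without the first knockout library with inhibitor, −0.22 without the third parent library with vehicle, and between −0.17 and −0.09 when any other library was left out, with 13 genes then tested. ID3, an inhibitor of bHLH factors, stood at 39.5, 32.7 and 39.9 CPM in the parent with vehicle, 36.4, 31.1 and 35.0 in the parent with the inhibitor, 44.9, 42.2 and 52.4 in the knockout with vehicle and 16.7, 11.2 and 15.5 in the knockout with the inhibitor. The knockout with inhibitor was below all other libraries, with an interaction of −1.56 ± 0.17 (adjusted p = 1.78e-06). ID4, of the same family, went from −0.98 ± 0.27 in vehicle to 0.63 ± 0.21 in inhibitor.

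Of 15 integrin genes 8 were upward and 2 downward (median 0.36), with ITGB8, which activates latent TGF-beta, at 1.21 ± 0.06 (adjusted p = 7.59e-20) and ITGA5, a fibronectin receptor chain, at 0.51 ± 0.06. Of 21 tested interferon-stimulated genes 6 were upward and 0 downward (median 0.28), among them the exonuclease ISG20 at 0.84 ± 0.11 and the peptide transporter TAP1 at 0.52 ± 0.10. That median was 0.13 and 0.15 without the second and the third parent library with vehicle, 0.17 without the first or the second knockout library with inhibitor and 0.18 without the first knockout library with vehicle, and 4 genes were upward without the second parent library with inhibitor. Of 26 tested hypoxia and glycolysis genes 10 were upward and 4 downward (median 0.10). PFKFB4, a regulator of glycolytic flux, had 0.83 ± 0.09 and the glucose transporter SLC2A1 −0.35 ± 0.04. Of 18 p53 targets 4 were upward and 0 downward (median 0.12), with the death receptors FAS and TNFRSF10B at 0.62 ± 0.18 and 0.35 ± 0.06 and the cell cycle inhibitor CDKN1A at 0.39 ± 0.07.

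Of 14 enzymes of phosphatidylserine and phosphatidylethanolamine synthesis 3 had an upward and 1 a downward interaction (median 0.08), a share near the 26.9% of all genes tested. PTDSS1, the target of the inhibitor, stood at 160.4, 169 and 166 CPM in the parent with vehicle, 176, 163 and 167 in the parent with the inhibitor, 177, 165 and 176 in the knockout with vehicle and 163, 147 and 165 in the knockout with the inhibitor. Its groups lay within a narrow range, and the interaction of −0.15 ± 0.06 (adjusted p = 0.04816) was lost in 12 of 21 alternatives. PTDSS2 had an interaction of 0.91 ± 0.36 (adjusted p = 0.05953) on the few counts left in the knockout, and it was called in 4 of 21 alternatives. PISD, the mitochondrial decarboxylase, had −0.24 ± 0.11 (adjusted p = 0.1021) and was called in 1 of 21 alternatives. The upward genes were those of the head group pathways: SELENOI, the ethanolamine phosphotransferase, at 0.38 ± 0.05, PCYT2, which makes CDP-ethanolamine, at 0.38 ± 0.11, and PCYT1A, which makes CDP-choline, at 0.34 ± 0.10.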

How the data were processed

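RNA of 12 A375 libraries was analysed. The submitters' processing notes name the aligner STAR 2.4.2a, the quantifier RSEM 1.2.23 and the build hg19, with annotation release and strandedness not given in the sources used here. Per the file headers, the authors deposited expected counts per gene (RSEM estimates that share out reads matching several genes) and TPM, scaled for length and library size, which enters no result. Expected counts were rounded. Of 25343 genes 25220 matched a RefSeq symbol (GRCh38.p14), and the other 123 held at most 0.0668% of a library's counts.

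Genes passing edgeR's filter (minimum count 10, minimum total 15) were scaled by TMM and fitted with edgeR 4.0.16 in R 4.3.3, 1 mean per group, robust quasi-likelihood F test, two-sided, Benjamini-Hochberg over 13455 genes. In simulated data over 13455 genes, changes were placed in the knockout with inhibitor alone, 50 per fold, on genes above a minimum mean count. The interaction test found 34% of 1.25-fold, 64% of 1.5-fold, 94% of 2-fold and 100% of 4-fold changes, and 10 of its 156 calls were false. Recovery for genes with lower counts, or with as many changed genes as in the data, was not simulated. Replicates differed by more than sampling noise. Same-numbered libraries did not deviate together (3 of 18 pairs with r over 0.1) and were not paired.

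The genes and lists were chosen with earlier results of these data known. Named genes are the synthases, all genes called in the parent, the 10 largest interactions per direction (mean of at least 8 CPM), 8 crossed and 5 closed or widened genes per direction, and per list the 4 with the smallest adjusted p and those against its direction, with some left out for length and a few not reported here. AJUBA, CALR, CNN2, CXCL2, CXCL3, HSPA1A, MITF, SRF, TEAD4, TGFB2, VCL and YAP1 were named after their values were seen. RefSeq promoter windows were found for 10774 of the genes tested. The alternatives tried were scaling by DESeq2 size factors or by library size, no filter or a mean of at least 5 CPM, DESeq2 1.42.0, limma-voom (limma 3.58.1), all 24 libraries, a replicate block, each library left out in turn and, added after seeing the data, edgeR's earlier quasi-likelihood method.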

Additional observations from a re-analysis of the deposited data

Results flagged for a closer look

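The inhibitor effect differed between the clones by the test of the difference itself, upward for 1752 genes and downward for 1863. Of the genes called in both clones with opposite signs, those described here had these interactions on the log2 scale: INSIG1 1.40, PRRX1 0.96, SREBF2 0.91, GSN 0.88, SCD 0.77, SLC26A2 0.62, LOXL4 0.53 and THBS1 −1.40. These genes were picked for their opposite calls, which fix the sign of the interaction, so the values are a description. Groups of 3 libraries are too small for a test of single libraries that stand apart.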

How the results depend on the processing

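The count of interactions was 3615, between 3198 and 3450 with 1 library left out, 2610 with DESeq2 (2601 of them shared), and no gene called under both changed sign under any of the 21 alternatives. Leaving out 1 library gave 1559 to 1807 upward and 1627 to 1736 downward genes. Called opposite arms numbered 5 to 10 with 1 library left out (5 without the third parent library with inhibitor, 6 without the first or the third parent library with vehicle, all among the same 10). Opposite arms with the parent at unadjusted p numbered 231 to 356, and 144 with DESeq2, and same signs 85 to 129, and 41 with DESeq2. Crossed clone differences numbered 317 to 455, and 270 with DESeq2, and those of 1 sign 702 to 870, and 602 with DESeq2. The cause of the lower DESeq2 counts was not tested. With the replicate number as a block 3645 interactions were called, 3562 of them shared, although the numbers do not pair the libraries. Of 204 genes chosen by the naming rule and with a called interaction 185 kept the call under every alternative and 19 lost it under at least 1, most often CXCL1 (14), PTDSS1 and UBE2G2 (12 each) and CYB5R2 (10). High-to-low crossings per list ranged from 1 to 4 for TRiC, 3 to 7 for mitosis, 3 to 6 for DNA replication, 4 to 7 for SRF and actin genes and 8 to 10 for YAP and TAZ targets. The single downward calls of phosphatidylserine synthesis, ER-associated degradation, vesicle coats and chemokines were each lost in several alternatives. Depth limits genes such as PTDSS2 in the knockout, at about 1 CPM.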
